A study of Mus musculus with 8 samples.

Results

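The nuclear genes of respiratory complexes II to V were taken by symbol: every protein-coding gene of the GENCODE M21 mouse annotation whose symbol begins with Sdha, Sdhb, Sdhc or Sdhd, with Uqcr, with Cox4 to Cox8, or with Atp5. The rule found 51 of the 49585 gene identifiers, 8 in complex II, 8 in complex III, 18 in complex IV and 17 in complex V. Because it works on the start of the symbol, it also takes in 4 assembly factors of complex II (Sdhaf1, Sdhaf2, Sdhaf3 and Sdhaf4), the supercomplex factor Cox7a2l and the coupling factor Atp5s, and it leaves out cytochrome c1 (Cyc1) and most assembly factors.

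RNA came from the dorsal horn of lumbar segments 4 to 6 of the spinal cord of adult C57BL/6J mice. There were 4 libraries from wild-type mice and 4 from miR-96 knock-out mice, none with a treatment in the labels. The labels do not say how the knock-out allele was made, in which cells it acts or what sex the mice were. Values are FPKM, fragments scaled to transcript length and to the mapped fragments of the library, so levels of different genes can be compared per length.

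Succinate dehydrogenase (complex II) feeds electrons from the citric acid cycle to ubiquinone, the cytochrome bc1 complex (III) passes them to cytochrome c, and cytochrome c oxidase (IV) hands them to oxygen. Complexes III and IV pump protons, and the ATP synthase (V) lets them flow back to make ATP. In the spinal cord, as elsewhere in the nervous system, this chain supplies most of the ATP that ion pumping and synaptic transmission use. Complex II is encoded in the nucleus alone, whereas III, IV and V each join nuclear subunits to subunits made from mitochondrial DNA.

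The targeted gene Mir96 (GRCm38 chromosome 6, 30169446 to 30169551, minus strand) was listed at 0 FPKM in all 8 libraries, which checks nothing, since a library of long polyadenylated RNA does not measure mature microRNAs. RefSeq (GRCm38.p6) gives the microRNA at chr6:30169506-30169528, minus strand. It is shown because its seed, bases 2 to 8 in capitals, sets which transcripts it could pair with:
miR-96-5p: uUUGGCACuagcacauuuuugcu
Matches to the seed in the form GTGCCAA, or to bases 2 to 7 followed by A in the form TGCCAAA, were searched on the transcript strand of the longest annotated 3′ untranslated region (UTR) of each gene. Of the 51 members, 2 held a match (3.92%), against 20.3% of the 13149 tested genes with such a region. The members' UTRs were short, with a median of 203 nt against 1233 nt. The 2 matches, in capitals with 10 bases on each side, lie 1039 and 1948 nt into UTRs of 4252 and 3922 nt:
Atp5g1: tctgtggcctGTGCCAAgacctccctt
Sdhaf3: acacagtgtaTGCCAAAcacaaagctc
These are matches of letters and not shown to be sites. Atp5g1 had a log2 fold change of -0.17 (SE 0.12) in the comparison below and Sdhaf3 one of 0.030 (SE 0.095).

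Expression of this set is known to be driven by the factor NRF1, by ETS-family factors such as GABP and by oestrogen-related receptors (ERR), so promoters were searched for their motifs. RefSeq promoters of 250 bases before to 50 after the start (GRCm38.p6) were matched by symbol for 38 members, and motifs were searched on both strands. The NRF1 motif, searched as the palindrome in capitals in the first set of windows below, was in the promoters of 4 members (10.5%), against 2.22% of the 10850 tested genes with a promoter and 1.07% of all 27025. The ETS motif CCGGAAG was in 15 (39.5%), against 18.6% and 9.93%, and either of these motifs was in 17. The ERR motif TCAAGGTCA was in 2, Sdhd and Atp5g3 (5.26%, against 0.359% and 0.466%). The Sp1 motif GGGCGGG was in 31.6%, against 51.5% and 27.9%, the YY1 motif AAGATGGC in 5.26%, against 5% and 3.19%, and the TATA box TATAAA in 10.5%, against 8.52% and 15.7%. The ETS motif ends with the letters that begin the YY1 motif. No match of one motif shared a base with a match of another in the members' promoters. The 4 NRF1 windows are shown, with the motif in capitals, because these are all its matches among the 38:
Atp5g2 (chr15:102671070-102671099, minus strand): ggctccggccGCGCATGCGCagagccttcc
Atp5k (chr5:108434430-108434459, minus strand): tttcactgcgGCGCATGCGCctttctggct
Cox6a1 (chr5:115349101-115349130, minus strand): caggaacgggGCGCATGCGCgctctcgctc
Uqcrc1 (chr9:108936668-108936697, plus strand): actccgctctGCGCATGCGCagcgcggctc
One ETS window from each complex is shown, with the motif's reverse complement CTTCCGG in capitals. The first base of the match lies at -46, -10, -16 and -38 from the start, in the order printed:
Sdhd (chr9:50603877-50603906, minus strand): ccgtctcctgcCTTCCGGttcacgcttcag
Uqcrh (chr4:116075062-116075091, minus strand): agtatgccgcaCTTCCGGccaggtcgccgg
Cox6a1 (chr5:115348956-115348985, minus strand): ccccatttccgCTTCCGGcgcgccggtgta
Atp5h (chr11:115419939-115419968, minus strand): caaggagagaaCTTCCGGcaactctcttcc
A match here is a description of the letters, and binding was not measured.

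Some facts of the whole series bear on what follows. Estimated depth was 32000000 to 43100000 fragments per library, and log2 values of the tested genes correlated between any pair of libraries at 0.955 to 0.991 (Pearson, across genes, which are not independent). All 13 markers listed for dorsal horn and spinal neurons, among them Slc17a6, Slc32a1, Lmx1b and Tac1, passed the filter, with summed levels of 1831 to 2279 FPKM in wild type and 1767 to 1945 in knock-out. The 5 sensory ganglion markers all had means under 1 FPKM. Of 5 motor neuron markers, which belong to the ventral horn, 4 passed the filter, and the list summed to 11.5 to 47.8 FPKM in wild type and 13.3 to 56.6 in knock-out. Wild type 1 stood apart. It had the highest summed blood markers, 211 FPKM against 6.12 to 56.96 in the other 7 libraries, and the highest summed markers of oligodendrocytes, 12174 FPKM against 7463 to 9166. Its sums were also the highest for neurons (2279 FPKM), astrocytes (895), microglia (59.996) and mural cells (71.5), next to highest values in the other libraries of 2072, 815, 57.1 and 65.2. Single markers did not all follow their sums. Of the astrocyte list, Gfap was highest in wild type 1 (755 FPKM), but Aldh1l1 (31.7), Aqp4 (61.3) and Slc1a3 (46.3) were lowest there. Of the neuron list, Snap25, Sst, Penk, Slc32a1, Npy, Tac1 and Tlx3 were highest there, and Gad1, Syt1, Rbfox3, Pax2 and Slc17a6 lowest. Of the mural list, Acta2, Kcnj8 and Rgs5 were highest there and Abcc9 lowest. All oligodendrocyte markers were highest there. Liver markers differed between the genotypes, with sums of 0.964 to 10.5 FPKM in wild type and 21.02 to 47.8 in knock-out. Of the 5, 4 passed the filter, and all of these were higher in knock-out at an unadjusted p under 0.05, and their part in the values below was not tested. In tissue RNA, fewer cells of a type and less RNA per cell cannot be told apart.

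The members were abundant. Their FPKM summed to 13939, 13292 and 11171 in wild type 2, 3 and 4 and to 11256, 11396, 12878 and 11919 in knock-out 1 to 4, while wild type 1 held 18259. As a share of all FPKM this was 1.93% to 2.74% in wild type and 1.96% to 2.16% in knock-out. The median member tested had a mean of 198 FPKM, against 12.7 for the median gene tested. Of the 51, 47 passed the filter of a mean of at least 1 FPKM over the 8 libraries.

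**Figure D1:**
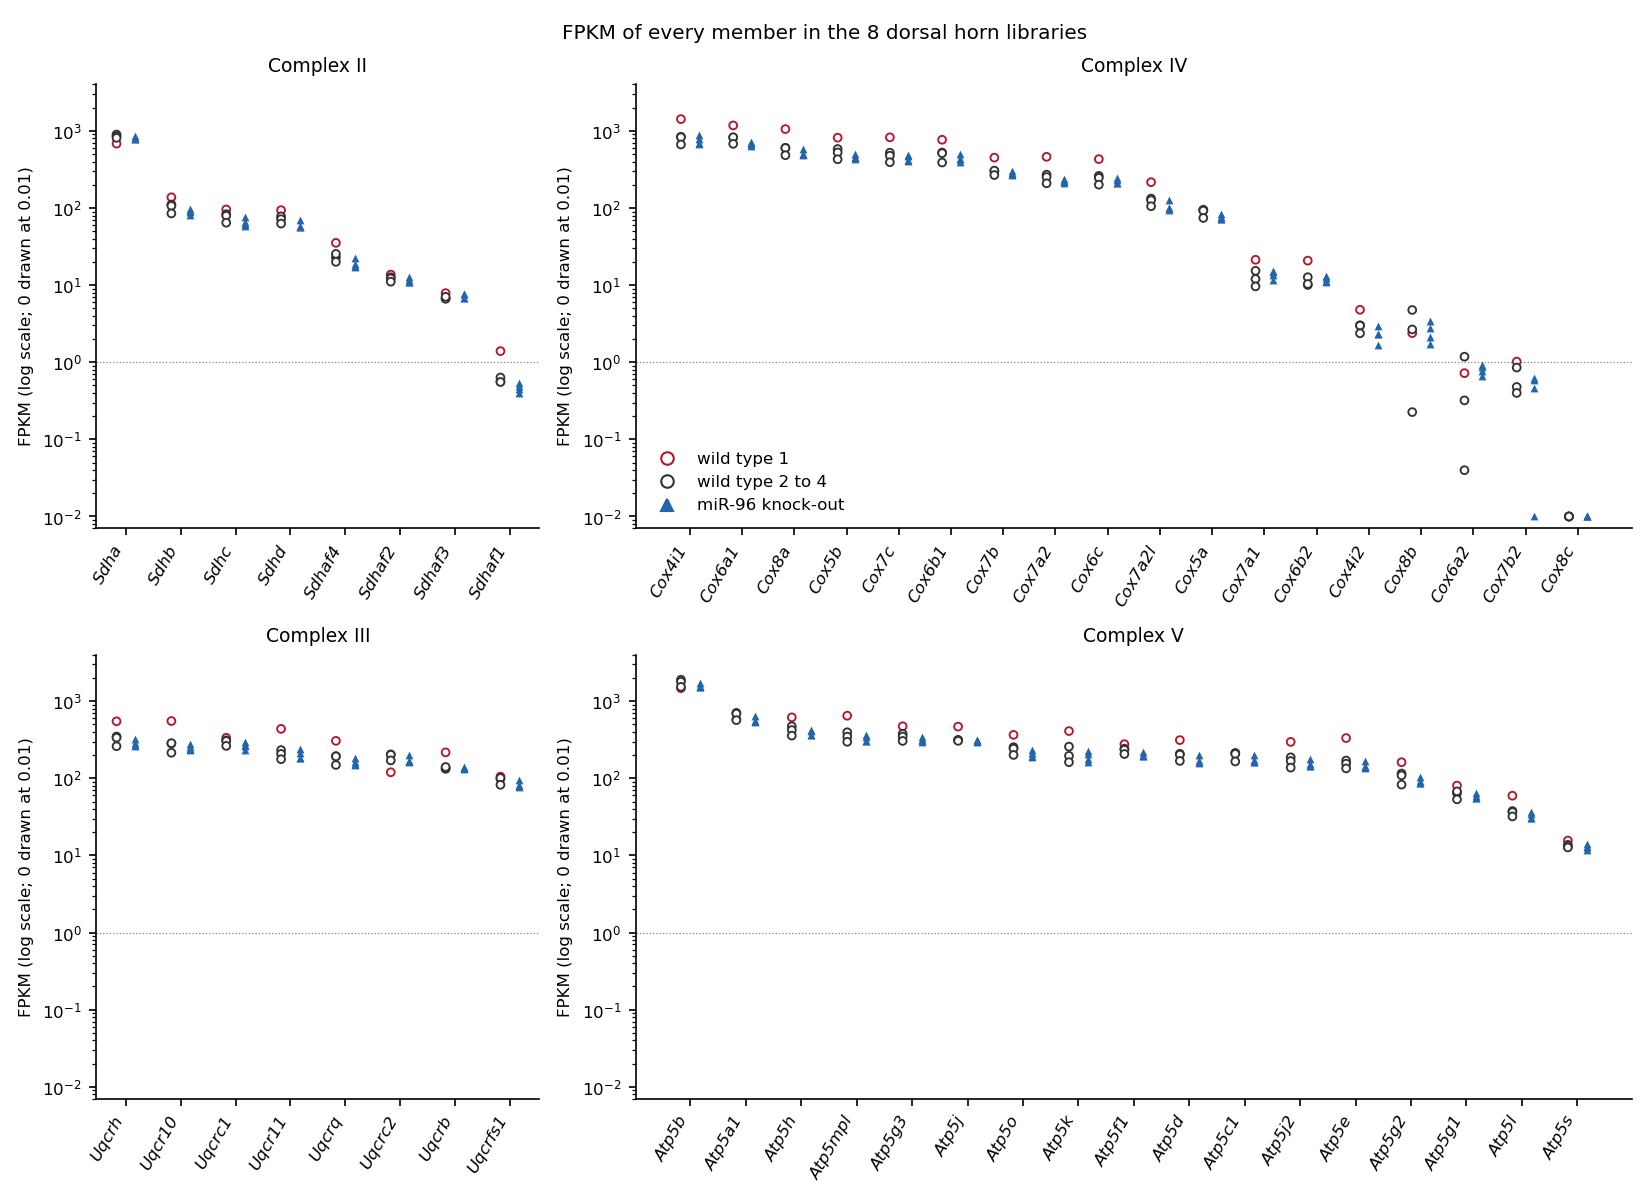
FPKM on a log axis for each of the 51 members in the 8 libraries, one panel per complex, members ordered by their mean (circles, wild type, with wild type 1 in red; triangles, knock-out; the dotted line is 1 FPKM, and 0 is drawn at 0.01). Mean levels run from 1634 FPKM (Atp5b) to 13.3 (Atp5s) in complex V, but only from 329 (Uqcrh) to 90.1 (Uqcrfs1) in complex III, and wild type 1 lies above the other libraries for most members.

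The catalytic beta subunit of the ATP synthase, Atp5b, was the most abundant member. Its 4 wild-type libraries held 1477, 1899, 1790 and 1535 FPKM and its knock-out libraries 1525, 1531, 1732 and 1586. In complex IV the order was led by the widely expressed isoforms Cox4i1 (mean 851 FPKM), Cox6a1 (781) and Cox8a (601). Cox8a lay below both Cox4i1 and Cox6a1 in every library, while the order of Cox4i1 and Cox6a1 changed between libraries. In complex III the small subunit Uqcrh, the hinge protein, led with 329 FPKM, followed by Uqcr10 (293) and the core protein Uqcrc1 (285). Uqcrh lay above Uqcr10 in every library but wild type 1, and the order of Uqcr10 and Uqcrc1 changed between libraries. In complex II the flavoprotein Sdha, which oxidises succinate, stood at 811 FPKM, and the other 3 subunits far lower, with 100.2 for the iron-sulphur subunit Sdhb, 73.3 for Sdhc and 68.6 for Sdhd, the pair of membrane anchors. The assembly factors were lower still, from 22.5 FPKM for Sdhaf4 to 0.627 for Sdhaf1.

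Some of these levels are uncertain because of near-identical copies elsewhere in the genome. For 13 members, another annotated gene matched at least 80% of the coding sequence at 95% identity or more, and for 12 of them such a copy had a mean of at least 1 FPKM. Atp5l, subunit g of the ATP synthase, had a mean of 37.3 FPKM. Gm10221, a processed pseudogene identical over the aligned part of the coding sequence, was listed at 122.5 FPKM. Atp5g1, which encodes the ring subunit c, had 62.6 FPKM, against 85.3 for Gm10039 (99.8% identical over the aligned part). How fragments were divided between such copies before deposit is not stated. The other copies lay at or below 63.1 FPKM, the level of Gm12338, a copy of Cox7c (502 FPKM).

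Across libraries the members moved together, and the pattern followed genotype only in part. On the log2(FPKM + 1) scale, the median deviation of the 47 tested members from their own means was 0.62 in wild type 1, 0.11 in wild type 2, 0.061 in wild type 3 and -0.20 in wild type 4. In knock-out 1 to 4 it was -0.21, -0.16, 0.0085 and -0.14. The same median over all genes tested stayed between -0.017 and 0.027. So wild type 1 was high, wild type 2 and 3 and knock-out 3 were in the middle, and wild type 4 lay with knock-out 1, 2 and 4. For 34 of the 47 members, wild type 4 and knock-out 1, 2 and 4 were all below wild type 2, wild type 3 and knock-out 3. Wild type 1 was the highest of the 8 libraries for 41 members and wild type 4 the lowest for 19. Wild type 1, 2 and 3 lay above the knock-out mean for 43, 45 and 43 of the 47 members. By contrast, wild type 4 lay below it for 41.

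**Figure D2:**
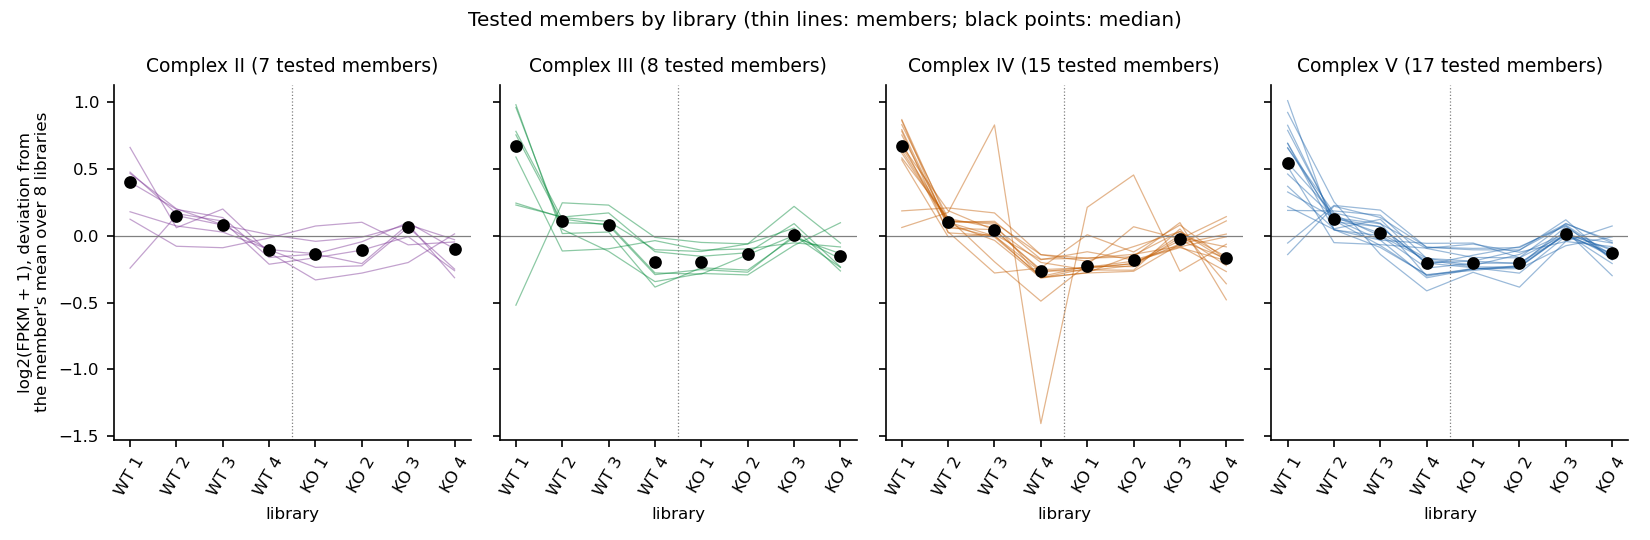
Deviation of each tested member from its own mean over the 8 libraries (thin lines, log2(FPKM + 1)) and the median per library (black points), by complex. In all 4 complexes wild type 1 is highest, with medians of 0.40 to 0.68, and wild type 4 is close to knock-out 1, 2 and 4; the line that falls to the bottom in complex IV is Cox8b.

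Against wild type, no member passed limma's Benjamini-Hochberg threshold of adjusted p 0.05 (0 of 47, with adjusted p from 0.62 to 0.997), as no gene did (0% of 15061). At an unadjusted p under 0.05 there were 2 members, Sdhd and Sdhaf4, which is 4.26% of the members, near the 5.52% of all genes tested. Both were lower in knock-out, a direction that 1.83% of all genes had at that p. For none of the 47 tested members did all 4 knock-out libraries lie below all 4 wild-type libraries, a separation seen for 1.12% of all genes, or above them (1.91%). The mean was lower in knock-out for 43 of the 47, against 46.9% of all genes, with a median log2 fold change of -0.27 against 0.014 for all genes. That difference rested largely on wild type 1. Without it the mean was still lower for 43 of 47 (49.5% of all genes), but the median was -0.11 (0.0013 for all genes), and 1 member, Sdhaf4, had an unadjusted p under 0.05 (3.81% of all genes).

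**Figure D3:**
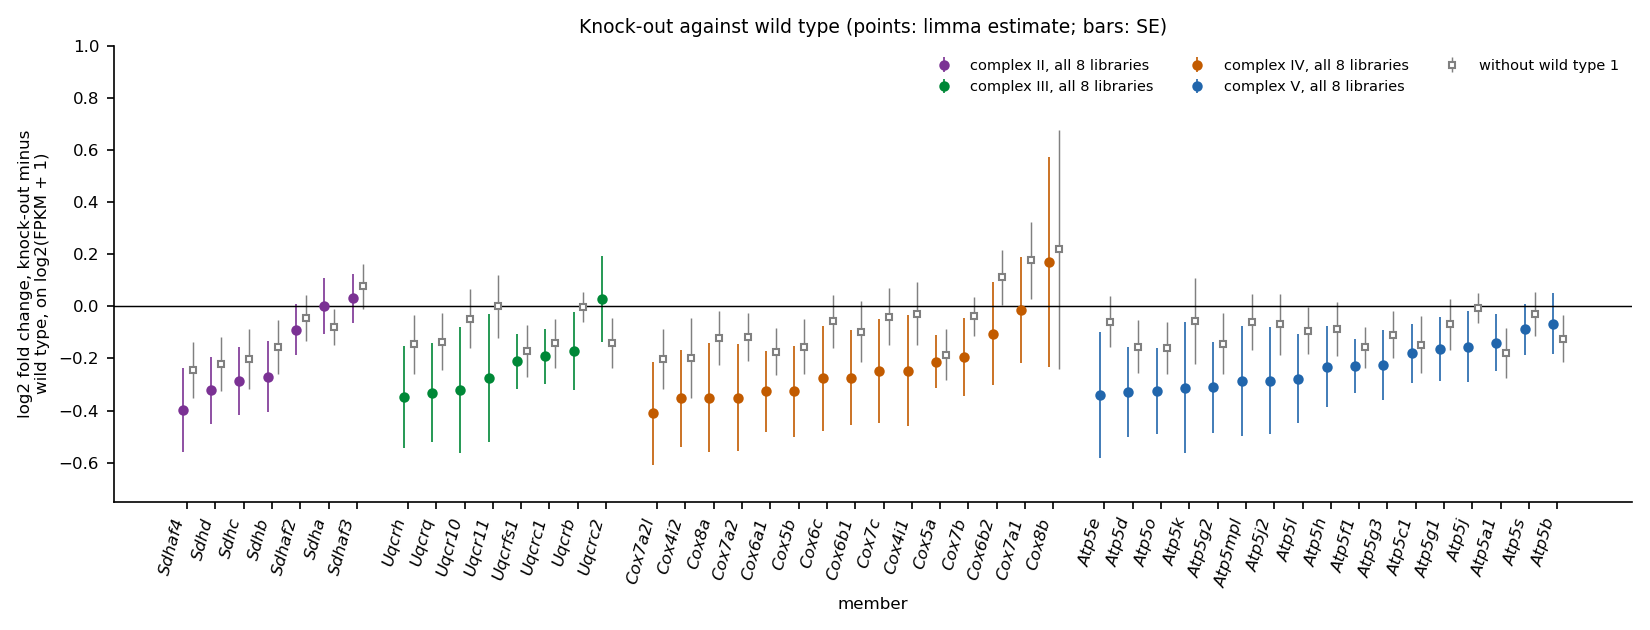
Log2 fold change of each tested member, knock-out minus wild type on log2(FPKM + 1), by complex (filled points with SE, all 8 libraries; open grey squares with SE, without wild type 1). Most filled points lie near the overall median of -0.27, and most open squares lie nearer to 0, near -0.11.

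By contrast, leaving out wild type 4, the wild-type library with the lowest levels, gave a median of -0.39 and 28 of 47 members (59.6%) at an unadjusted p under 0.05, beside 20.9% of all genes. None passed the adjusted threshold there (lowest limma adjusted p = 0.199). With library weights estimated by limma, 14 members passed, all lower in knock-out (29.8% of the members, against 4.08% of all genes called lower and 10.8% called in either direction). These 14 were 4 of complex II (Sdhaf4, Sdhd, Sdhc and Sdhb), 2 of complex III (Uqcrfs1 and Uqcrh), 3 of complex IV (Cox5a, Cox6a1 and Cox7a2l) and 5 of complex V (Atp5a1, Atp5f1, Atp5c1, Atp5o and Atp5g2). The weights were 0.153 for wild type 1, 0.988, 5.09 and 0.423 for wild type 2 to 4, and 0.696 to 2.63 for knock-out, so wild type 3 carried the most weight.

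The excess in wild type 1 went with the length of the coding sequence. The tested members are short, with a median coding length of 390 nt against 1407 nt for tested genes with a coding sequence. Wild type 1 exceeded the median of the other 7 libraries by a factor of 1.69 in the median member, and by 1.5 or more in 30 of the 47. The factor was highest for the shortest member, Atp5e (159 nt of coding sequence, 2.34-fold), the epsilon subunit of the ATP synthase rotor. It was 2.17 for Uqcr10 (195 nt), 2.11 for Uqcr11 (171 nt) and 2.12 for Cox8a (210 nt). The 5 members with at least 1000 nt did not show it in the same way, with 0.702 for the core protein Uqcrc2, 0.84 for Sdha, 0.932 for Atp5b, 1.02 for Atp5a1 and 1.24 for Uqcrc1. On log2(FPKM + 1), the median difference under 500 nt was 0.81 for members and 0.47 for all genes tested. From 500 to under 1000 nt it was 0.54 and 0.22, and from 1000 to under 2000 nt -0.10 and -0.022. Under 1000 nt the members thus lay above genes of like length, and the cause was not tested.

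**Figure D4:**
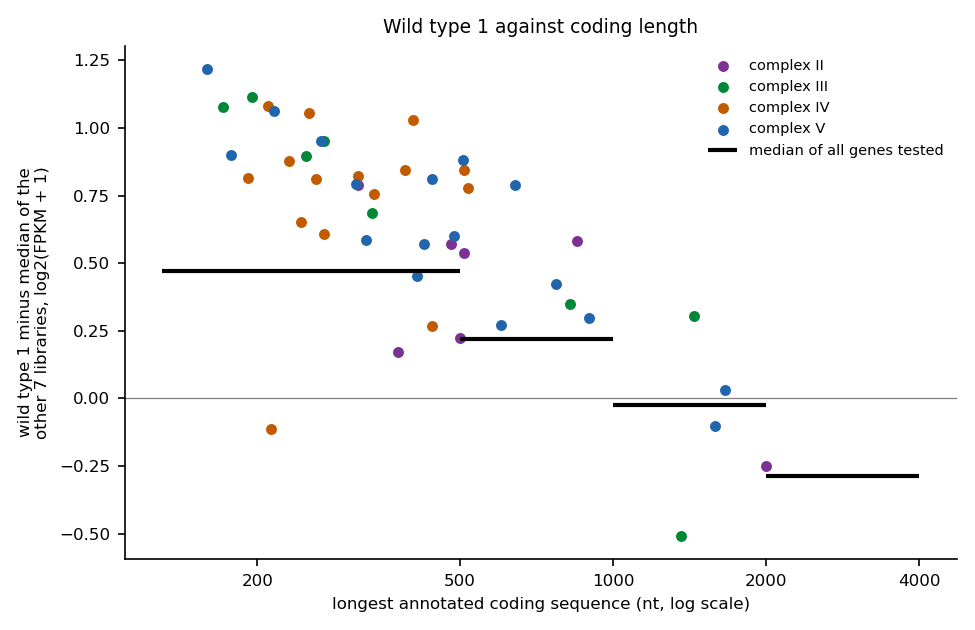
Wild type 1 minus the median of the other 7 libraries on log2(FPKM + 1), against the longest annotated coding sequence in nt (log axis), for the 47 tested members (points, by complex); black bars are medians over all genes tested in 4 length classes. Both the members and the other genes fall with length, from 0.47 for all genes under 500 nt to -0.29 for those of 2000 nt or more; the point below 0 at the left is Cox8b.

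The genotype comparison followed the same order of lengths in all genes tested. Of the 1117 tested genes with under 500 nt of coding sequence, 80.1% had a lower mean in knock-out, with a median log2 fold change of -0.17, and the 31 members among them had a median of -0.28. From 500 to under 1000 nt the medians were -0.096 for 2983 genes and -0.25 for 11 members. From 1000 to under 2000 nt they were 0.0018 for 5050 genes and -0.066 for 5 members. Without wild type 1, the medians were -0.061 for genes and -0.069 for members under 500 nt, and -0.056 and -0.16 in the next class. In the longest class with members they were then -0.010 and -0.14. With the trend on coding length removed from each library, a setting chosen after the data had been seen, the median of the 47 members was -0.095 and 37 had a lower mean. The part of the marker sums in the members' values was not tested.

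Complex II held both members of low p. Sdhd (GRCm38 chromosome 9, 50596357 to 50603812, minus strand), a membrane anchor that with Sdhc binds heme and ubiquinone, was at 93.9, 77.97, 71.7 and 62.9 FPKM in wild type and at 57.3, 57.8, 70.8 and 56.8 in knock-out. The groups overlapped, because knock-out 3 lay above wild type 4. The log2 fold change was -0.32 (SE 0.13, limma unadjusted p = 0.0313, adjusted p = 0.62), and -0.22 (SE 0.10) without wild type 1.

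Sdhaf4 (chromosome 1, 23995939 to 24005656, minus strand), which helps the flavoprotein join the iron-sulphur subunit, was at 35.35, 22.97, 25.4 and 20.1 FPKM in wild type and at 17.3, 17.95, 19.01 and 22.2 in knock-out. Only knock-out 4 reached into the wild-type range. The log2 fold change was -0.40 (SE 0.16, limma unadjusted p = 0.0328, adjusted p = 0.62) and without wild type 1 -0.24 (SE 0.11).

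The other anchor Sdhc was at 95.9, 83.1, 79.6 and 64.5 FPKM in wild type and at 65.7, 62.5, 76.9 and 58.01 in knock-out, a difference of -0.29 on the log2 scale (SE 0.13). The iron-sulphur subunit Sdhb was at 138, 111, 107 and 85.2 FPKM in wild type and at 88.1, 91.7, 98.4 and 82.3 in knock-out (-0.27, SE 0.14). Both had wild type 4 and knock-out 1, 2 and 4 as their low libraries, and without wild type 1 they were at -0.20 (SE 0.12) and -0.16 (SE 0.10). Sdha differed from them in pattern. It was at 684, 898, 855 and 813 FPKM in wild type and at 786, 803, 857 and 792 in knock-out, so that wild type 1 was its lowest library, and its log2 fold change was 0.0012 (SE 0.11, 95% interval -0.24 to 0.24). The flavin attachment factor Sdhaf2 stood at 12.4 ± 1.08 FPKM (SD, n = 4) in wild type and 11.6 ± 0.917 in knock-out (-0.089, SE 0.096, and -0.044, SE 0.088, without wild type 1). Sdhaf3, an iron-sulphur assembly factor, was at 7.08 ± 0.562 and 7.25 ± 0.483. Sdhaf1, of the same role, was not tested, with 1.39, 0.562, 0.634 and 0.555 FPKM in wild type and 0.399 to 0.531 in knock-out, where all 4 libraries lay below wild type.

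In complex III, 7 of 8 members had a lower mean in knock-out, with a median of -0.24 that became -0.14 without wild type 1. The Rieske protein Uqcrfs1, which takes electrons from ubiquinol, was at 105, 98.8, 100.9 and 82.4 FPKM in wild type and 80.4, 81.9, 95.4 and 76.0 in knock-out. Here wild type 1 was only slightly above wild type 2 and 3, and the low libraries were wild type 4 and knock-out 1, 2 and 4. Its log2 fold change was -0.21 (SE 0.10), or -0.17 (SE 0.10) without wild type 1.

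The core protein Uqcrc2 was the exception among the 8. It was at 119.8, 204, 202 and 171 FPKM in wild type and at 166, 165, 201 and 166 in knock-out. Wild type 1 was far below the rest, and the log2 fold change was 0.027 (SE 0.17), or -0.14 (SE 0.097) without that library. Its partner Uqcrc1 was at 336, 311, 305 and 263 FPKM in wild type and 261, 271, 295 and 236 in knock-out (-0.19, SE 0.11).

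Among the small subunits, Uqcrh (-0.35, SE 0.20), Uqcrq (-0.33, SE 0.19) and Uqcr10 (-0.32, SE 0.24) had the lowest log2 fold changes. Without wild type 1, Uqcrh and Uqcrq were at -0.14 (SE 0.11) each. Uqcr10 was at 553, 283, 286 and 214 FPKM in wild type and at 237, 234, 278 and 255 in knock-out, high in wild type 1 alone. Without wild type 1 its log2 fold change was -0.047 (SE 0.11). For Uqcr11 and Uqcrb the values without wild type 1 were -0.00023 (SE 0.12) and -0.0031 (SE 0.058).

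In complex IV, all 10 widely expressed subunits had a lower mean in knock-out, from -0.35 for Cox7a2 and Cox8a to -0.20 for Cox7b, with a median of -0.28 that became -0.11 without wild type 1. Cox5a, a subunit on the matrix side, was at 93.6, 95.04, 92.6 and 74.4 FPKM in wild type and at 71.9, 77.6, 83.9 and 72.2 in knock-out. For it wild type 1 did not stand out, and wild type 4 fell within the knock-out range. The log2 fold change was -0.21 (SE 0.10) with all libraries and -0.19 (SE 0.099) without wild type 1.

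Cox4i1, which binds ATP in a regulatory role, was at 1423, 839, 828 and 667 FPKM in wild type and at 682, 688, 792 and 893 in knock-out. Apart from wild type 1 the groups overlapped, with knock-out 4 the next highest, and the log2 fold change of -0.25 (SE 0.21) became -0.028 (SE 0.12) without it. Cox6a1 was at 1178, 822, 827 and 680 FPKM in wild type and at 683, 697, 727 and 637 in knock-out. Its log2 fold change was -0.33 (SE 0.16), and -0.17 (SE 0.089) without wild type 1. Cox5b, the zinc-binding subunit, was at 817, 583, 527 and 429 FPKM in wild type and at 433, 443, 499 and 455 in knock-out, with -0.33 (SE 0.17) and -0.16 (SE 0.11). Cox6b1 had -0.27 (SE 0.18) and -0.097 (SE 0.12).

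Cox7a2l, known as a supercomplex factor, had the lowest fold change of all members tested. Whether Cox7a2l joins complexes III and IV in these mice was not tested. It was at 216, 133, 127 and 105 FPKM in wild type and at 101, 101, 126 and 94.3 in knock-out. The log2 fold change was -0.41 (SE 0.20, limma adjusted p = 0.62), and -0.20 (SE 0.11) without wild type 1, and wild type 4 lay between the knock-out libraries.

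Several complex IV subunits also have isoforms known from particular tissues, and all of these were minor in the dorsal horn. Cox7a1, the heart and muscle isoform of subunit 7a, was at 21.3, 15.3, 12.03 and 9.63 FPKM in wild type and at 11.8, 14.6, 13.7 and 15.5 in knock-out. That was 4.40% to 5.36% of the sum with its partner Cox7a2 in wild type and 5.23% to 6.52% in knock-out, ranges that overlapped through wild type 2 and knock-out 1. Cox6b2, the testis isoform of subunit 6b, made up 1.92% to 2.63% of the sum with Cox6b1 in wild type and 2.43% to 3.02% in knock-out, at 12.7 FPKM on average.

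Cox4i2, the lung isoform of subunit 4, was at 4.79, 3.02, 2.98 and 2.38 FPKM in wild type and at 2.31, 2.34, 2.98 and 1.67 in knock-out. This gave a log2 fold change of -0.35 (SE 0.19). Its share of the pair with Cox4i1 was 0.336% to 0.359% in wild type, 0.338% to 0.376% in knock-out 1 to 3 and 0.187% in knock-out 4.

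Cox8b, the muscle isoform of subunit 8, varied most. It was at 2.39, 2.66, 4.76 and 0.226 FPKM in wild type and at 2.76, 3.45, 1.70 and 2.11 in knock-out. The difference was 0.17 on the log2 scale (SE 0.40, 95% interval -0.73 to 1.07). Wild type 4 was the low library here, and without it the log2 fold change was -0.27. Cox6a2, the heart and muscle isoform of subunit 6a, was below the filter, with 0.722, 1.18, 0.320 and 0.0398 FPKM in wild type and 0.658 to 0.921 in knock-out. Wild type 4 was lowest again. The markers of skeletal and heart muscle summed to 4.57, 4.57, 3.14 and 1.79 FPKM in wild type 1 to 4 and ranged from 1.89 to 3.39 in knock-out, with 7 of the 8 under a mean of 1 FPKM and none at 0 throughout, although Myh1 and Myh4 were at 0 in 6 libraries each. Their part in these isoform values was not tested. The testis isoforms Cox7b2 and Cox8c were also below the filter, Cox7b2 at 0.400 to 1.02 FPKM in wild type and 0 to 0.630 in knock-out, and Cox8c listed at 0 in all 8.

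In complex V all 17 members had a lower mean in knock-out, with all libraries (median -0.23) and without wild type 1 (median -0.093). In the F1 head, Atp5b had a log2 fold change of -0.066 (SE 0.12, 95% interval -0.33 to 0.19), which was -0.12 (SE 0.091) without wild type 1 and -0.0035 (SE 0.12) without wild type 2. Its partner alpha, Atp5a1, was at 581, 706, 689 and 568 FPKM in wild type and at 561, 560, 638 and 544 in knock-out (-0.14, SE 0.11). For Atp5a1 the middle and low libraries were again parted as above, and without wild type 1 the log2 fold change was larger in size, -0.18 (SE 0.096).

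The rotor subunits gamma, delta and epsilon (Atp5c1, Atp5d and Atp5e) had log2 fold changes of -0.18 (SE 0.11), -0.33 (SE 0.17) and -0.34 (SE 0.24). Atp5d was at -0.15 (SE 0.10) without wild type 1. Atp5e was at 333, 170, 155 and 134 FPKM in wild type and at 137, 141, 167 and 143 in knock-out, again high in wild type 1 alone, and its value without wild type 1 was -0.059 (SE 0.099).

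Of the peripheral stalk, which holds the head still, subunit b (Atp5f1) had the lowest unadjusted p of complex V, 0.0524 (limma adjusted p = 0.62). It was at 277, 242, 235 and 207 FPKM in wild type and at 197, 197, 222 and 200.2 in knock-out, with wild type 4 inside the knock-out range. Its log2 fold change was -0.23 (SE 0.10), and -0.16 (SE 0.079) without wild type 1. The oligomycin sensitivity conferring protein Atp5o had -0.33 (SE 0.17), subunit d (Atp5h) -0.23 (SE 0.16) and coupling factor 6 (Atp5j) -0.15 (SE 0.14). Without wild type 1 these were -0.16 (SE 0.10), -0.087 (SE 0.10) and -0.0072 (SE 0.059). Factor B, Atp5s, which is needed for coupling, had -0.088 (SE 0.097), and -0.030 (SE 0.083) without wild type 1.

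Subunit c of the membrane ring is made from 3 genes that encode the same mature protein behind different import peptides. Atp5g3 supplied 66.1% to 69.2% of their summed FPKM in wild type and 67.3% to 68.5% in knock-out. Atp5g2 supplied 18.8% to 22.6% and 19.0% to 20.003%, and Atp5g1 11.3% to 12.9% and 11.8% to 12.9%. The ranges overlapped between the genotypes for each gene. Fragments listed under near-identical copies are not in these sums. With Gm10039 at 85.3 FPKM against 62.6 for Atp5g1, the share of Atp5g1 is uncertain. The log2 fold changes were -0.23 (SE 0.13) for Atp5g3, -0.31 (SE 0.17) for Atp5g2 and -0.17 (SE 0.12) for Atp5g1. Without wild type 1 they were -0.11 (SE 0.091), -0.14 (SE 0.12) and -0.069 (SE 0.098). Atp5g3, the main source, was at 473, 378, 348 and 305 FPKM in wild type and at 294, 311, 348 and 318 in knock-out. The 4 other subunits of the membrane part, Atp5k, Atp5mpl, Atp5j2 and Atp5l, lay between -0.31 and -0.28, and between -0.093 and -0.057 without wild type 1.

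Of the 6 mitochondrially encoded partners listed, 2 had a lower mean in knock-out, mt-Co1 (-0.067, SE 0.12) and mt-Cytb (-0.079, SE 0.25), and both changed sign under quantile normalization, removal of the length trend and library weights. Without wild type 1, where it was at 8586 FPKM against 3722 to 5310 elsewhere, mt-Cytb was at 0.18 (SE 0.14). The other 4 had higher means. The largest difference was that of mt-Co3, at 49.1, 22.5, 19.2 and 17.3 FPKM in wild type and 57.4, 28.7, 55.5 and 136 in knock-out. The log2 fold change was 1.24 (SE 0.44, limma adjusted p = 0.62), and 1.56 (SE 0.43) without wild type 1. The values for mt-Atp6, mt-Co2 and mt-Atp8 were 0.78 (SE 0.39), 0.55 (SE 0.47) and 0.55 (SE 0.42), and without wild type 1 they were 1.18 (SE 0.27), 1.03 (SE 0.33) and 0.95 (SE 0.32). These are levels in polyadenylated RNA, and mt-Co3, mt-Atp6 (17.6 to 69.6 FPKM), mt-Co2 (29.3 to 134) and mt-Atp8 (1.78 to 10.3) lay far below mt-Co1 (7528 to 9518) although they are transcribed from the same strand. Near-identical copies were sought for the members only and not for these partners. How fragments shared with any such copy were divided is not stated, so these levels and differences are uncertain.

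Other nuclear genes of complexes II to V, a list of 41 chosen by name (39 tested), had a lower mean in knock-out in 31 cases, with a median of -0.15, and -0.070 without wild type 1. None passed limma's adjusted threshold (0 of 39). Of all genes tested, 5.52% had an unadjusted limma p under 0.05, and 1.83% had it with a lower mean in knock-out. In this list 3 of 39 had it, all lower in knock-out. These were Cox19, a copper-handling assembly factor of complex IV, with 53.4, 41.8, 45.6 and 38.3 FPKM in wild type and 33.6, 35.1, 37.7 and 34.0 in knock-out (-0.33, SE 0.11), Cyc1 (-0.29, SE 0.13) and the assembly factor Coa6 (-0.30, SE 0.13). For Cox19 all 4 knock-out libraries lay below all 4 wild-type libraries. The fourth by p was Cmc1 (-0.27, SE 0.13). Sco2 and Pet117 were listed at 0 in all libraries. Of 11 regulators of mitochondrial gene expression, none passed and none had an unadjusted p under 0.05. Nrf1 was at 12.1 ± 2.03 FPKM (SD, n = 4) and 10.5 ± 0.362, Gabpa at 11.1 ± 3.67 and 13.9 ± 1.78, and the coactivator Ppargc1a at 12.6 ± 2.82 and 14.01 ± 1.76.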

How the data were processed

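Polyadenylated RNA from 8 dorsal horn samples (1 µg total RNA each, NEBNext Ultra kit per the labels' protocols) was sequenced. The authors deposited FPKM per gene, per the file headers. HISAT2, SAMtools and Cufflinks were used per the submitters' processing notes, which list the build mm8. Versions, options and use of strand are not stated there. Deposited loci equalled the GENCODE M21 annotation (GRCm38) for 45128 genes (91.5% of those with a symbol) and 43 of the 51 members, so coordinates are on GRCm38.

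The comparison used limma 3.58.1 in R 4.3.3 (lmFit, eBayes with trend and robust, two-sided, Benjamini-Hochberg) on log2(FPKM + 1), a scale that understates changes of low genes, over the 15061 genes with a mean of at least 1 FPKM. FPKM are not counts, so no count model was fitted. Depth was estimated from steps of 1 fragment in genes with 1 transcript of at least 3000 nt, with fragments of 200 nt assumed, where 93.1% to 94.7% of values came within 0.15 of a whole number. Near-identical copies were sought with blastn 2.17.0. The fit was tested on simulated data. It recovered 44 of 100 genes changed by 0.5 on the log2 scale and 86 of 100 changed by 1, with 6 false calls. Errors were drawn separately for each gene, so shifts shared by many genes of a library were absent. Changes as small as the members' median were not simulated. Alternatives were other pseudocounts, filters, scalings and length corrections, library weights, a replicate block and leaving out each library.

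The series' design text counts 4 mice of each genotype, so each library was taken as 1 mouse. No 2 libraries held identical values. Members and lists were chosen with earlier results of these data known. Genes named by rule were every complex II member; Uqcrc1, Uqcrc2, Uqcrfs1, Cox4i1, Cox5a, Cox5b, Atp5a1, Atp5b and the 3 Atp5g genes; tissue-restricted isoforms and their partners; in each complex the 3 members of lowest p and the 2 of largest fold change in each direction; members not tested; and 4 other genes of lowest p with the mitochondrially encoded partners. Further genes, such as Uqcr10, Uqcr11, Uqcrb, the remaining complex V subunits and the regulators, were added after their values were seen.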

Additional observations from a re-analysis of the deposited data

Results flagged for a closer look

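A library that lay far from the other 3 of its genotype was seen in 8 of 94 groups of 4 checked (the 47 tested members in 2 genotypes). Chance gives about 1 in 20 for independent groups. The members share libraries and moved together, so the 8 cannot be set against that rate. In 4 of the 8, knock-out replicate 3 lay above the other knock-out libraries, with 70.8 FPKM of Sdhd, 201 FPKM of Uqcrc2, 583 FPKM of Cox8a and 222 FPKM of Atp5f1. In 2, wild type replicate 4 lay below the other wild-type libraries, with 74.4 FPKM of Cox5a and 165.5 FPKM of Atp5c1. In the other 2, wild type replicate 1 lay above the rest of its genotype, with 217 FPKM of Uqcrb and 468 FPKM of Atp5j.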

How the results depend on the processing

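The lower mean of most members held in direction under every setting run: 37 to 45 of those tested were lower in knock-out, with medians from -0.39 to -0.095. No member passed the adjusted threshold except with estimated library weights, where 14 members, 1627 genes of all tested and 6 other genes of complexes II to V passed. Leaving out 1 library gave 0 to 28 members at an unadjusted p under 0.05 and 0 to 1 genes past the threshold. Other counts of members at an unadjusted p under 0.05 were 4 with median-ratio rescaling (5.62% of all genes), 7 with the length trend removed (4.64%) and 29 with weights (33.3%); the cause was not tested. With the coding length trend removed, a setting added after seeing the data, the median of the other genes of complexes II to V was -0.015; the cause was not tested.

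Several log2 fold changes changed sign. With quantile normalization they were 0.025 for Atp5a1, -0.027 for Sdhaf3, 0.12 for mt-Co1 and 0.020 for mt-Cytb. With median-ratio rescaling Sdha was at -0.0045. With the length trend removed they were 0.028 for Atp5b, 0.0011 for Cox6b2, 0.073 for Cox7a1, -0.010 for Sdhaf3, 0.054 for mt-Co1 and 0.061 for mt-Cytb. With the coding length trend removed they were 0.079 for Cox6b2, 0.18 for Cox7a1, 0.012 for Cox7b, -0.046 for Sdha and 0.051 for Sdhaf2. With weights they were 0.13 for Cox6b2, 0.15 for Cox7a1, -0.36 for Cox8b, -0.089 for Sdha, -0.22 for Uqcrc2, 0.0094 for mt-Co1 and 0.28 for mt-Cytb. Leaving out 1 library, the values ran from -0.22 to 0.11 for Cox6b2, -0.18 to 0.18 for Cox7a1, -0.27 to 0.47 for Cox8b, -0.079 to 0.052 for Sdha, -0.14 to 0.11 for Uqcrc2 and -0.22 to 0.18 for mt-Cytb.

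The replicate block left 0 members past the threshold, 2 at an unadjusted p under 0.05 and a median of -0.27. Deviations of libraries with the same number correlated at -0.11 to 0.14 across genes, and 1 of 8 libraries correlated best with its own number. Paired samples need not share such deviations, so this cannot decide whether the numbers pair the samples. Members with a mean under 1 FPKM fell below the filter and were not tested.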
